A study of Mus musculus with 6 samples.

Results

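Gadd45a, Gadd45b, Gadd45g, Map3k4, Tbl2 and Ptbp2 are 6 mouse genes whose mRNAs have been described, in mammals or in Drosophila, as targets of nonsense-mediated decay or as parts of the stress pathway that such targets feed. They were taken by symbol from a deposited exon count table of 55378 genes, of which 15619 were abundant enough to test. All 6 were found and all 6 were tested. The libraries came from mouse embryos that had been microinjected as zygotes with siRNA against Eif4a3 (Eif4a3-KD) or with a control siRNA (NC), and collected as blastocysts on day 5. Each group had 3 libraries, each a pool of 5 embryos, prepared from polyA RNA with Smart-seq2 and read as pairs of 150 bases. Both groups were injected, so neither is an untouched embryo, and both were collected on day 5. Whether the pools shared an injection date is not stated. The labels used here give no strain and do not say whether pools of a group had separate parents, so the p-values speak for the variation among these pools alone, and that variation may be technical.

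Nonsense-mediated decay is the cytoplasmic pathway that destroys mRNAs on which a ribosome stops well upstream of an exon junction. EIF4A3 is the RNA helicase that anchors the exon junction complex, the protein mark left at spliced junctions which the decay factors read. GADD45 proteins are small stress-induced proteins that bind and activate the kinase MAP3K4 (MEKK4 or MTK1), which signals to p38 and JNK. In Drosophila and in mammalian cells, raised Gadd45 has been described as a source of the cell death that follows loss of decay factors. TBL2 is an endoplasmic reticulum protein that binds the stress kinase PERK, and its mRNA serves as a decay readout in human cells. PTBP2 is the neuronal polypyrimidine tract binding protein; its paralogue PTBP1 causes skipping of exon 10 of Ptbp2, and the skipped mRNA is a decay substrate.

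The sequence of that exon is shown because it is the best described decay switch among these genes. Exon 10 of Ptbp2 lies at chr3:119724612-119724645 on the minus strand of GRCm38, within the coding region, and is 34 bases long. It is given from the GENCODE vM21 transcript, 5′ to 3′, with the exon in capitals and 20 bases of each neighbouring exon in lower case.
Ptbp2 exon 10: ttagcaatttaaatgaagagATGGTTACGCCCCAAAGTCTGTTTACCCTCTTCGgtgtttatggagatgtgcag
Its length leaves a remainder of 1 on division by 3. When those 34 bases were removed from the annotated mRNA sequence, the reading frame met a stop 27 bases after the new junction, with 67% of the coding length used. That stop had 3 exon junctions downstream of it, the nearest 66 bases away and the last 361 bases away. The full mRNA had 0 junctions downstream of its stop.

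The 250 bases upstream of the Gadd45 start sites are shown because these 3 family members had unlike values in the pools. They are RefSeq sequences of GRCm38.p6 at chr6:67037408-67037657 on the minus strand (Gadd45a), chr10:80929841-80930090 on the plus strand (Gadd45b) and chr13:51846425-51846674 on the plus strand (Gadd45g). Capitals mark matches, on either strand, to the CCAAT box (CCAAT), the TATA box (TATAAA) and the octamer (ATTTGCAT), and no marked matches overlapped each other.
Gadd45a: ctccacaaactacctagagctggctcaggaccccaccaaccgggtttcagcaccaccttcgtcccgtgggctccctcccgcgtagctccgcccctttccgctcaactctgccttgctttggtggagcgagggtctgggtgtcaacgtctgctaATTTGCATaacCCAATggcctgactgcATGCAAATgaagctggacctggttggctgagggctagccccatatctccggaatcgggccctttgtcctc
Gadd45b: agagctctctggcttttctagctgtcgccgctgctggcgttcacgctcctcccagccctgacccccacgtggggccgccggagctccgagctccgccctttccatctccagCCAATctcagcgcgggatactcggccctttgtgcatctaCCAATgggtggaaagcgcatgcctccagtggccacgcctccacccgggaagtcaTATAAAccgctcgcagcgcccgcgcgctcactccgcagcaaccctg
Gadd45g: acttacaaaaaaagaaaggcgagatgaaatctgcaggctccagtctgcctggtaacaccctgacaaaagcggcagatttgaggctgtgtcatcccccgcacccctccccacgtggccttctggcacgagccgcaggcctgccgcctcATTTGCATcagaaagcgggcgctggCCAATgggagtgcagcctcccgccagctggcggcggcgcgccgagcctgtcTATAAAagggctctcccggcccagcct
Gadd45a held 1 CCAAT match and 2 octamer matches, and no TATAAA. Gadd45b held 2 CCAAT matches and 1 TATAAA match, which began 46 bases before the start site. Gadd45g held 1 match of each motif, with TATAAA beginning 27 bases before the start site. Distances are from the RefSeq start sites, which differ from the outer ends of the first exon blocks counted. The first block of Gadd45a reaches 67037457 and that of Gadd45b begins at 80930073, both inside the windows shown. Distances of the motifs therefore depend on the start site chosen. Among 32851 RefSeq promoter windows of the same length, 33.8% held CCAAT, 12.4% held TATAAA and 1.6% held the octamer. None of the 3 motifs occurred in the windows of Map3k4, Tbl2 or Ptbp2. A match describes letters only.

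Ptbp2 was the 1 gene of the 6 whose difference passed the threshold, against 13.1% of the 15619 genes tested with edgeR at an adjusted p under 0.05 (7.52% higher and 5.56% lower). Ptbp2 and Gadd45b were 2.84-fold and 2.91-fold higher in Eif4a3-KD pools by their means, and Map3k4 was 2.59-fold lower. Of these, the Gadd45b and Map3k4 differences did not pass the adjusted test. Gadd45a, Gadd45g and Tbl2 overlapped between the groups. In all, the pools of 3 of the 6 genes did not overlap, against 36.4% of genes tested; 2 were higher, against 20.1%, and 1 lower, against 16.3%. The median log2 fold change of the 6 was 0.82, against 0.03 over all genes tested, with 4 estimates above 0 and 2 below. At an unadjusted p under 0.05 there were 3 of the 6, against 30.1%. DESeq2 called 3 of the 6, against 21.3%. With 6 genes, these counts are given as a description and nothing is read from them about the set.

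**Figure D1:**
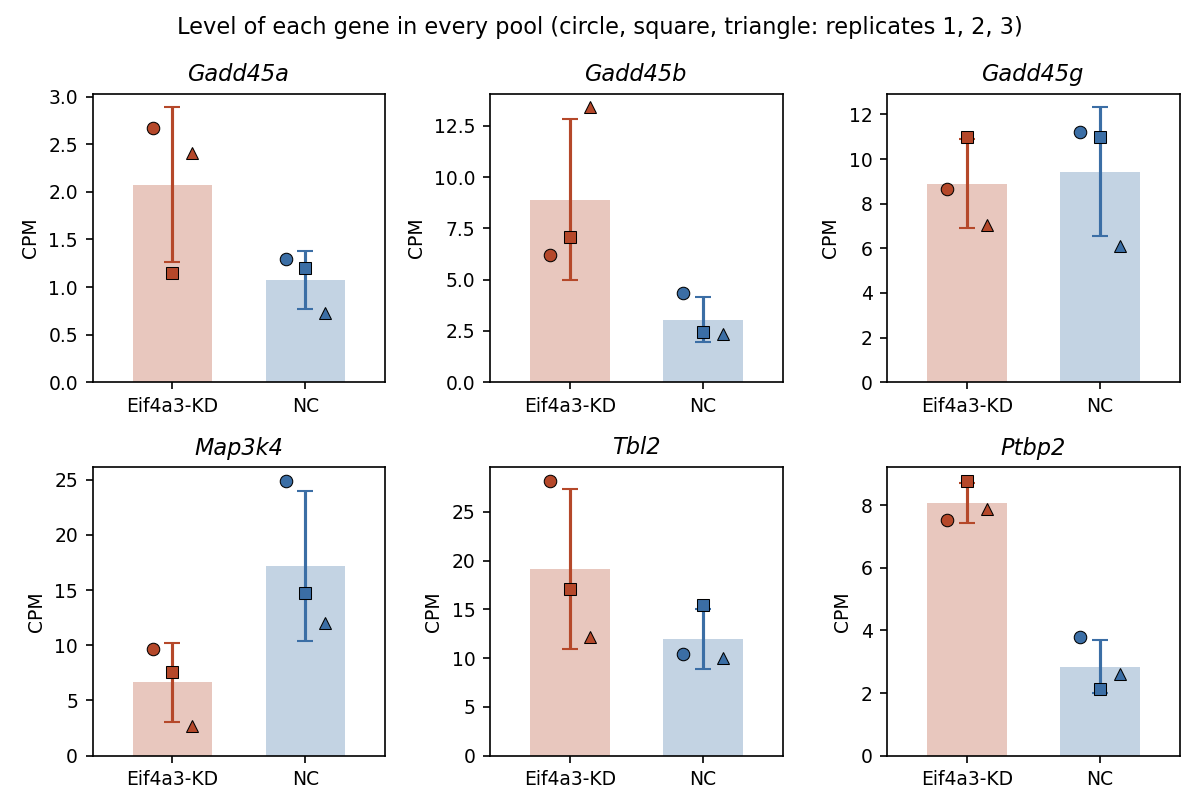
CPM (counts scaled to a common library size) of the 6 genes in every pool, with Eif4a3-KD left of NC in each panel; points are pools, bars are means and error bars are SD (n = 3 each). Ptbp2 at 7.54 to 8.78 CPM in Eif4a3-KD pools lies above its 2.12 to 3.78 CPM in NC pools, while Map3k4 at 2.71 to 9.7 CPM lies below its 12 to 24.9 CPM.

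The libraries held 15607226 to 18697761 block counts each, and values are given as CPM on TMM-scaled library sizes. Eif4a3 itself had 16.0, 36.2 and 56.2 CPM in Eif4a3-KD pools, against 302, 255 and 202 CPM in NC pools (log2 fold change −2.81, edgeR adjusted p = 0.00513). Markers of blastocyst lineages also differed. Summed trophectoderm markers were 583 to 2241 CPM in Eif4a3-KD pools and 2510 to 6408 CPM in NC pools, with 6 of 11 tested markers lower. Primitive endoderm markers summed to 314 to 345 CPM in Eif4a3-KD pools and 668 to 826 CPM in NC pools, with 3 of 7 lower. Epiblast markers summed to 2341 to 6430 CPM in Eif4a3-KD pools and 5575 to 12643 CPM in NC pools, with 3 of 10 lower. Dppa5a, which did not pass (edgeR adjusted p = 0.171), made up most of that sum, and the other 9 markers summed to 239.7 to 323 CPM in Eif4a3-KD pools and 571 to 711 CPM in NC pools. Among the 2-cell stage markers 9 of 10 were higher. Eif1a, the remaining one, made up nearly the whole NC sum, and the other 10 markers summed to 99.1 to 307 CPM in Eif4a3-KD pools and 0.459 to 0.597 CPM in NC pools. Cumulus markers were at most 0.0469 CPM in Eif4a3-KD pools and 0.133 CPM in NC pools, with 6 of 8 at 0 in every pool. Sperm markers summed to 0.969 to 3.37 CPM in Eif4a3-KD pools and 1.04 to 2.49 CPM in NC pools, and fibroblast markers summed to 1.02 to 10.7 CPM in Eif4a3-KD pools and 1.99 to 12.7 CPM in NC pools. Blood markers summed to 3.65 to 7.57 CPM in Eif4a3-KD pools and 7.09 to 55.6 CPM in NC pools, with 2 of 5 lower. The part of these shifts in the results below was not tested, and in pooled embryos fewer cells of a type and less RNA per cell cannot be told apart.

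Gadd45b, the family member known as an early stress and NF-kB response gene, lies on chromosome 10 (80930073 to 80932204, plus strand). It had 6.19, 7.09 and 13.4 CPM in Eif4a3-KD pools, against 4.33, 2.46 and 2.36 CPM in NC pools. Every Eif4a3-KD pool was above every NC pool, and Eif4a3-KD replicate 3 stood well above the other two. The means were 8.88 ± 3.91 CPM in Eif4a3-KD pools and 3.05 ± 1.11 CPM in NC pools (SD, n = 3 each), resting on 471 and 160 counts. The log2 fold change of 1.53 (SE 0.48) had an adjusted p of 0.061 in edgeR and an unadjusted p of 0.00911. The exact two-sided permutation p was 0.1, the smallest that 3 pools against 3 allow. The call depended on the setting, and Gadd45b passed in 4 of 15 alternatives. Its adjusted p was 0.0156 with DESeq2, 0.0375 with no filter on low counts, 0.0425 with a filter of 5 CPM and 0.0402 from the most counted block. In the other alternatives with all libraries it ranged from 0.0559 to 0.0759, and without 1 library in turn from 0.051 to 0.2. Its 3 exon blocks had fold differences of 3.22, 3.02 and 2.56 from the 5′ end, all higher in Eif4a3-KD pools.

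Gadd45a, the founding member of the family and a p53 target after DNA damage, lies on chromosome 6 (67035096 to 67037457, minus strand). Its level was the lowest of the 6 in CPM, with 2.67, 1.15 and 2.41 CPM in Eif4a3-KD pools, against 1.29, 1.2 and 0.722 CPM in NC pools. Eif4a3-KD replicates 1 and 3 were above all NC pools, while replicate 2 lay among them. The log2 fold change was 0.95 (SE 0.59, edgeR adjusted p = 0.311, exact permutation p = 0.3), from 116 counts in Eif4a3-KD pools and 55 in NC pools. Exons of other genes, on either strand, overlapped 19.1% of the length of its merged exon blocks. At this depth an interval of 2 standard errors ran from −0.23 to 2.13 on the log2 scale.

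Gadd45g, a growth inhibitor of the family that is also expressed in differentiating embryonic cells, lies on chromosome 13 (51846678 to 51848468, plus strand). It had 8.67, 11 and 7.04 CPM in Eif4a3-KD pools, against 11.2, 11 and 6.1 CPM in NC pools. The groups overlapped almost entirely. The log2 fold change was −0.09 (SE 0.39, edgeR adjusted p = 0.908, exact permutation p = 0.8), and an interval of 2 standard errors ran from −0.87 to 0.70. Without Eif4a3-KD replicate 3 the estimate was 0.05, and without NC replicate 1 it was 0.04. Its 3 blocks gave log2 ratios of −0.19, −0.06 and −0.07.

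Ratios within a pool compare the paralogues without the library size. The log2 ratio of Gadd45b over Gadd45g was −0.49, −0.63 and 0.92 in Eif4a3-KD pools, against −1.37, −2.17 and −1.37 in NC pools. The groups did not overlap, with means of −0.06 ± 0.86 in Eif4a3-KD pools and −1.64 ± 0.46 in NC pools (SD, n = 3 each). The difference of 1.57 had an exact permutation p of 0.1, and 0.3 after adjustment over the 3 pairs of genes. Gadd45a over Gadd45b averaged −2.10 ± 0.77 in Eif4a3-KD pools and −1.50 ± 0.40 in NC pools, with an exact permutation p of 0.3, and 0.4 adjusted (n = 3 each). For Gadd45a over Gadd45g the means were −2.17 ± 0.94 in Eif4a3-KD pools and −3.13 ± 0.06 in NC pools, with an exact permutation p of 0.4, also after adjustment (n = 3 each). The 3 NC pools lay close together in this last ratio, whereas Eif4a3-KD replicate 2 fell below them and the other Eif4a3-KD pools above.

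**Figure D2:**
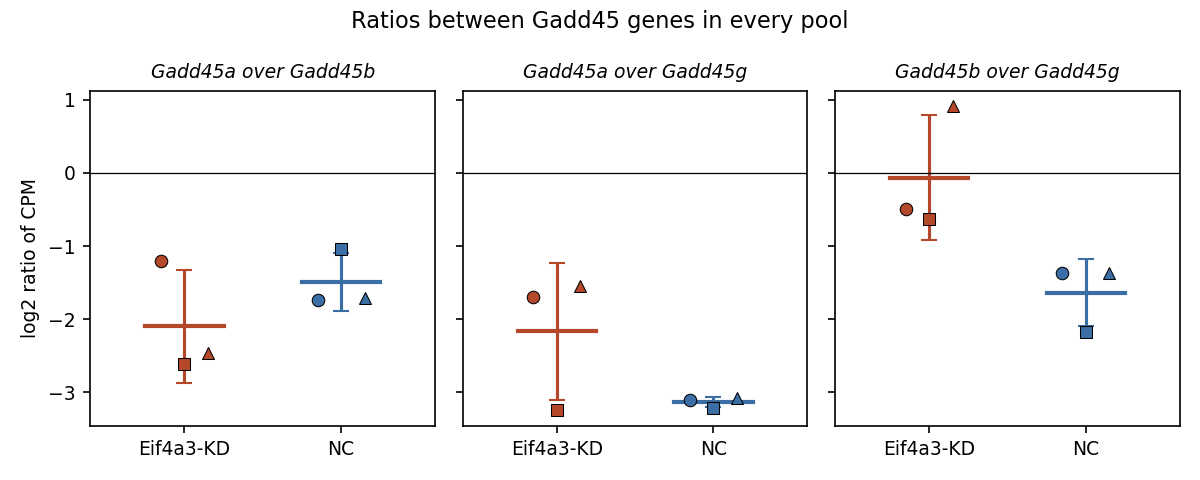
Log2 ratio of CPM between each pair of Gadd45 genes, with Eif4a3-KD left of NC; points are pools, lines are means and error bars are SD (n = 3 each). The ratio of Gadd45b over Gadd45g is −0.63 to 0.92 in Eif4a3-KD pools and −2.17 to −1.37 in NC pools, and the other ratios overlap.

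Map3k4, the kinase that GADD45 proteins bind, lies on chromosome 17 (12227621 to 12318796, minus strand). It had 9.7, 7.57 and 2.71 CPM in Eif4a3-KD pools, against 24.9, 14.7 and 12 CPM in NC pools. Every Eif4a3-KD pool was below every NC pool, with Eif4a3-KD replicate 3 the lowest of all and NC replicate 1 the highest. The means were 6.66 ± 3.58 CPM in Eif4a3-KD pools and 17.2 ± 6.8 CPM in NC pools (SD, n = 3 each). The log2 fold change was −1.37 (SE 0.50, edgeR adjusted p = 0.0973, unadjusted p = 0.0205, exact permutation p = 0.1), opposite in sign to that of Gadd45b. It passed with DESeq2 (adjusted p = 0.0408) and with no filter on low counts (0.0217), and without 1 library in turn the adjusted p ranged from 0.0605 to 0.285.

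Along the gene, counts of Map3k4 were uneven. The 10 blocks nearest the 5′ end summed to 1.17 ± 0.459 CPM in Eif4a3-KD pools and 3.23 ± 1.13 CPM in NC pools, with an exact permutation p of 0.1 (SD, n = 3 each). The 10 middle blocks summed to 0.568 ± 0.167 CPM in Eif4a3-KD pools and 2.11 ± 1.66 CPM in NC pools, with an exact permutation p of 0.4 (SD, n = 3 each). The 10 nearest the 3′ end summed to 4.92 ± 3.26 CPM in Eif4a3-KD pools and 11.9 ± 4.35 CPM in NC pools, with an exact permutation p of 0.1 (SD, n = 3 each). All 3 stretches had the lower mean in Eif4a3-KD pools, and the groups overlapped in the middle one, where NC replicate 3 had 0.262 CPM. Of the 30 blocks, 7 had 0 counts in all Eif4a3-KD pools and 2 had 0 in all NC pools, or 5 without NC replicate 1. Single pools had 14, 11 and 18 blocks at 0 in Eif4a3-KD, against 3, 5 and 15 in NC, so NC replicate 3 lay among the Eif4a3-KD pools.

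Tbl2, the PERK-binding protein, lies on chromosome 5 (135149657 to 135165760, plus strand). Its level was 28.2, 17.1 and 12.2 CPM in Eif4a3-KD pools, against 10.4, 15.5 and 9.97 CPM in NC pools. Eif4a3-KD replicate 1 was the highest, and Eif4a3-KD replicate 3 lay between NC pools. The log2 fold change was 0.68 (SE 0.40, edgeR adjusted p = 0.278, exact permutation p = 0.2). Without 1 library in turn the log2 fold change ranged from 0.26 to 0.91.

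The share of Tbl2 counts in its last block did not overlap between groups. The same held for 21.1% of 6022 genes with at least 4 blocks and at least 100 counts in every pool. Of the 6 genes only Tbl2 met those limits, and the shares of the others overlapped. That block, which holds the 3′ UTR of 6078 bases, took 30.1%, 32.2% and 39.1% of Tbl2 counts in Eif4a3-KD pools, against 46.4%, 41.5% and 42.8% in NC pools. The exact permutation p was 0.1, and the test of block use gave an unadjusted p of 0.388 for this block. Over the 6022 genes, the median share of the last block was 17.0% to 21.8% in Eif4a3-KD pools and 19.2% to 21.7% in NC pools. Blocks 5 and 6 of Tbl2 were 2.4-fold and 2.3-fold higher in Eif4a3-KD pools by their means, while the last block was 1.21-fold higher.

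Ptbp2 lies on chromosome 3 (119718742 to 119784466, minus strand). It had 7.54, 8.78 and 7.88 CPM in Eif4a3-KD pools, against 3.78, 2.12 and 2.62 CPM in NC pools. Every Eif4a3-KD pool was well above the highest NC pool, and the Eif4a3-KD pools lay closer together than those of any other of the 6 genes, with a coefficient of variation of 7.94%. The means were 8.07 ± 0.641 CPM in Eif4a3-KD pools and 2.84 ± 0.849 CPM in NC pools (SD, n = 3 each), from 437 and 148 counts. Ptbp2 thus rose in Eif4a3-KD pools, with a log2 fold change of 1.5 (SE 0.42, edgeR adjusted p = 0.043, exact permutation p = 0.1). The call was lost when any single library was left out, with an adjusted p of 0.0589, 0.1 and 0.0848 without Eif4a3-KD replicates 1, 2 and 3, and of 0.0592, 0.16 and 0.114 without NC replicates 1, 2 and 3. The log2 fold change in those fits ranged from 1.28 to 1.74.

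The exons around the decay switch of Ptbp2 held few counts. Exon 10, the sequence in capitals above, had 1, 0 and 0 counts in Eif4a3-KD pools, against 5, 0 and 0 in NC pools. Exon 9 had 5, 5 and 9 counts in Eif4a3-KD pools, against 7, 0 and 1 in NC pools. Exon 11 had 4, 5 and 6 counts in Eif4a3-KD pools, against 7, 0 and 3 in NC pools. Summed over pools, exon 10 had 1 count beside 19 on exon 9 and 15 on exon 11 in Eif4a3-KD, against 5 beside 8 and 10 in NC. All 5 NC counts came from 1 pool, the exon was too thinly covered to enter the test of exon use, and a difference in its inclusion was not detectable at this depth. The last block held more counts than any other block of Ptbp2, with 142 in Eif4a3-KD pools and 41 in NC pools.

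Use of single exon blocks, after removal of the gene's own level, was tested with edgeR for 25 of the 62 blocks of the 6 genes. None passed, against 0.168% of the 67890 blocks tested in the whole table. Of the 25, 0 had an unadjusted p under 0.05 (lowest 0.254, for Map3k4), and limma's test on the same blocks called 0. The 3 Gadd45 genes entered with all their blocks, Map3k4 with 9 of 30, Tbl2 with 6 of 8 and Ptbp2 with 2 of 16. The main transcripts of Gadd45a, Gadd45b and Gadd45g have 4 exons each, but joining overlapping lines left 2, 3 and 3 blocks. Use of exons joined in 1 block could not be told apart.

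**Figure D3:**
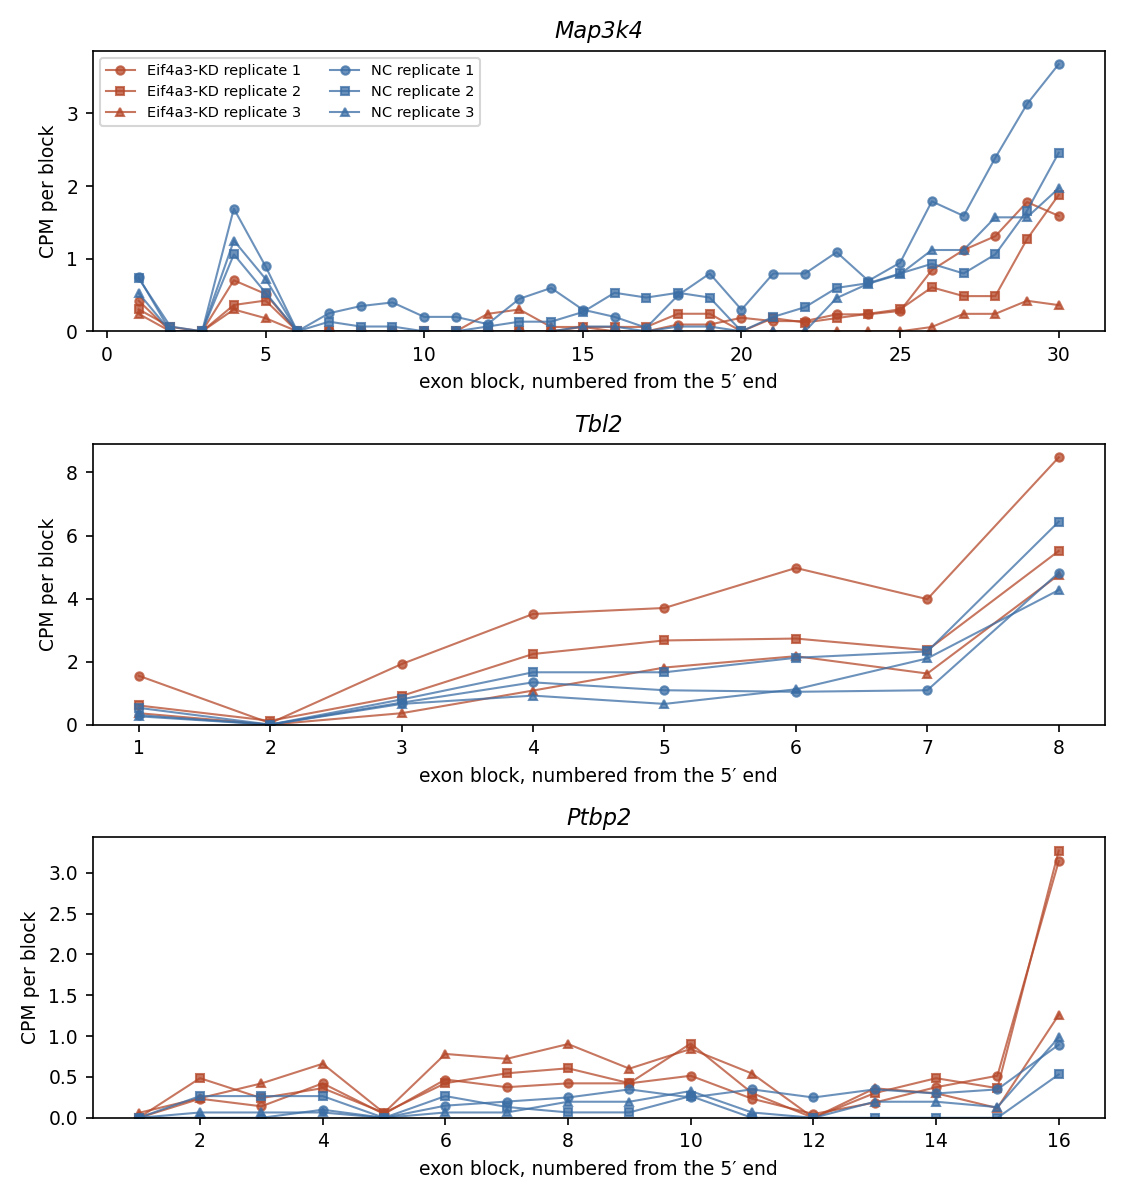
CPM in each exon block of Map3k4, Tbl2 and Ptbp2, numbered from the 5′ end, with 1 line per pool (Eif4a3-KD red, NC blue). Map3k4 has 7 of 30 blocks with 0 counts in all Eif4a3-KD pools and 2 in all NC pools (5 without NC replicate 1), Tbl2 has a 1.21-fold higher mean in its last block against 2.4-fold in block 5, and Ptbp2 has its highest block at the 3′ end (142 in Eif4a3-KD pools and 41 in NC pools).

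On a scale of CPM per kilobase of kept exon length, the order of the genes in Eif4a3-KD pools was Gadd45g (7.58 ± 1.68), Gadd45b (5.91 ± 2.6), Tbl2 (2.44 ± 1.04), Gadd45a (1.75 ± 0.685), Ptbp2 (0.88 ± 0.0698) and Map3k4 (0.654 ± 0.352). In NC pools it was Gadd45g (8.05 ± 2.46), Gadd45b (2.03 ± 0.738), Map3k4 (1.69 ± 0.668), Tbl2 (1.52 ± 0.394), Gadd45a (0.902 ± 0.258) and Ptbp2 (0.31 ± 0.0925). These levels are means ± SD over 3 pools. The neighbours Gadd45g and Gadd45b, Tbl2 and Gadd45a, and Ptbp2 and Map3k4 lay within their SDs of each other in Eif4a3-KD pools. In NC pools the neighbours Gadd45b, Map3k4 and Tbl2 did, while Gadd45g stood clear above the rest. Genes with many exons gain in this measure, since a pair that spans a junction counted in each block it touched. In CPM, the 6 genes were low to middling: their means ranged from 1.57 to 15.6 CPM, against a median of 8.91 CPM over all genes tested.

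**Figure D4:**
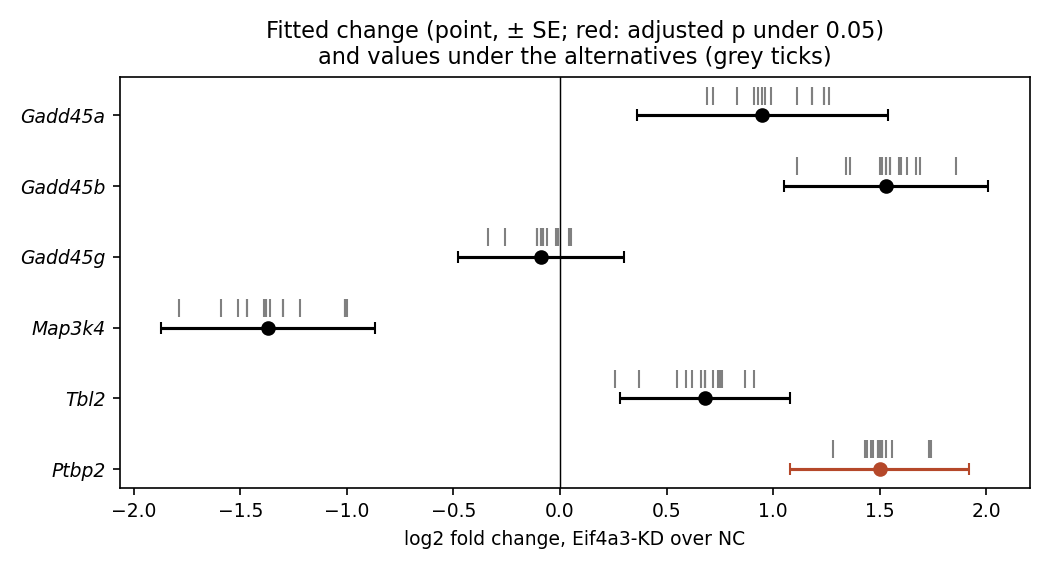
Log2 fold change of each gene, Eif4a3-KD over NC, from edgeR (points, ± SE, n = 3 each; red where the adjusted p is under 0.05), with the values under the alternative settings as grey ticks. Ptbp2 (1.5), Gadd45b (1.53), Gadd45a (0.95) and Tbl2 (0.68) stay above 0 in every setting shown and Map3k4 (−1.37) stays below it, while Gadd45g (−0.09) lies on both sides.

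The annotated transcripts differ in what could make them decay substrates. None of the 6 main coding transcripts has an exon junction downstream of its stop; a junction more than 50 bases downstream is present in 0.36% of 12505 tested coding genes. Transcripts of the annotation's nonsense-mediated decay class exist for Tbl2 (3) and Ptbp2 (2) and not for the other genes, against 28.3% of coding genes with at least 1. Retained-intron transcripts exist for Gadd45a (4), Map3k4 (3), Ptbp2 (3), Gadd45b (1) and Gadd45g (1), and for 57.3% of coding genes. The 3′ UTRs measure 563 bases (Gadd45a), 558 (Gadd45b), 489 (Gadd45g), 479 (Map3k4), 6078 (Tbl2) and 1586 (Ptbp2), with a median of 893 over coding genes. Of the 6, only Map3k4 has ATG triplets in its 5′ UTR, of which there are 2; 50.2% of coding genes have at least 1.

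The genes around the 6 were described by lists, whose counts stand beside the 7.52% of all genes tested that were higher and the 5.56% that were lower. In the p38 and JNK kinase cascade, the pathway downstream of MAP3K4, 2 of 25 tested genes were higher and 0 lower, with a median log2 fold change of 0.00. Mapk10, the JNK3 kinase, had 15.2, 16.2 and 15.3 CPM in Eif4a3-KD pools, against 8.36, 5.71 and 5.12 CPM in NC pools (1.28, edgeR adjusted p = 0.0405), and the call was lost without any single library (adjusted p up to 0.157). Dusp10, a phosphatase that inactivates p38 and JNK, had 40.3, 39.7 and 29.2 CPM in Eif4a3-KD pools, against 8.55, 12.1 and 22.2 CPM in NC pools (1.35, adjusted p = 0.0478). Both genes had no overlap between groups, and the call of Dusp10 was lost without any single library other than NC replicate 3 (up to 0.169).

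Among 11 known protein partners of GADD45, 1 was higher and 0 lower, with a median of 0.17. This was Ercc5, the XPG repair nuclease, at 20.7, 24.0 and 18.8 CPM in Eif4a3-KD pools, against 8.11, 8.83 and 7.35 CPM in NC pools (1.39, edgeR adjusted p = 0.0208). The call of Ercc5 was lost without Eif4a3-KD replicate 2 (0.065) or without NC replicate 1 (0.0642), 2 (0.079) or 3 (0.0703).

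Transcription factors described as acting on Gadd45 genes had 0 of 15 higher and 3 lower, with a median of −0.39. Foxo1, an activator of Gadd45a, fell to 5.21 ± 0.656 CPM in Eif4a3-KD pools, against 16.0 ± 3.05 CPM in NC pools (−1.62, edgeR adjusted p = 0.0167). Myc, a repressor of Gadd45a, fell to 5.04 ± 3.0 CPM in Eif4a3-KD pools, against 19.7 ± 5.95 CPM in NC pools (−1.97, adjusted p = 0.0309). Stat3, a transducer of cytokine signals, fell to 20.8 ± 11.5 CPM in Eif4a3-KD pools, against 83.4 ± 40.2 CPM in NC pools (−2.00, adjusted p = 0.0252; SD, n = 3 each). The genes called lower thus included a described activator and a described repressor of Gadd45a, and their action on Gadd45 genes was not tested. Foxo3 (1.05, edgeR adjusted p = 0.102) and Atf4 (0.68, 0.151) were higher with no overlap between groups, but missed the threshold. Foxo3 and Atf4 are named here with their values seen. The call of Foxo1 was lost without NC replicate 1 (0.0555) or 2 (0.0588). That of Myc was lost without any single library other than Eif4a3-KD replicate 3 (up to 0.0968), and that of Stat3 without Eif4a3-KD replicates 2 (0.0885) or 3 (0.0654) or NC replicates 1 (0.0904) or 2 (0.0689).

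Polypyrimidine tract proteins and their partners had 0 of 9 higher and 3 lower, with a median of −1.33, beside the rise of Ptbp2. The paralogue Ptbp3 had 20.1, 34.4 and 13.1 CPM in Eif4a3-KD pools, against 101, 57.8 and 91.0 CPM in NC pools (−1.89, edgeR adjusted p = 0.0148). It passed in all 6 fits without 1 library (adjusted p up to 0.0496). Hnrnpl, a splicing repressor, fell by 1.39 on the log2 scale (adjusted p = 0.0459, lost without any single library, up to 0.126). Raver1, a PTBP1 cofactor, had −1.81 (edgeR adjusted p = 0.0486). That call was lost without 4 of the 6 libraries: Eif4a3-KD replicates 2 and 3 and NC replicates 1 and 3 (up to 0.165). Exons of other genes overlapped 99.7% of the length of the merged exon blocks of Raver1. Ptbp1, which represses exon 10 of Ptbp2, averaged 59.0 ± 28.9 CPM in Eif4a3-KD pools and 149 ± 29.3 CPM in NC pools (SD, n = 3 each). Its pools did not overlap, but the difference missed the threshold (−1.33, adjusted p = 0.0566). Ptbp1 is named here for its known action on Ptbp2, with its values seen.

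The PERK arm of the stress response, whose kinase TBL2 binds, had 2 of 11 higher and 0 lower, with a median of 0.18. Ddit3, the stress factor CHOP, had 105, 49.7 and 94.6 CPM in Eif4a3-KD pools, against 18.0, 23.4 and 21.0 CPM in NC pools (2.0, edgeR adjusted p = 0.00704). The symbol Ddit3 has 2 identifiers in the table and 10.9% of the one used is overlapped by another gene. Dnajc3, an inhibitor of PERK in the endoplasmic reticulum, had 184, 164 and 99.3 CPM in Eif4a3-KD pools, against 61.4, 77.6 and 46.1 CPM in NC pools (1.27, adjusted p = 0.032). The call of Ddit3 was kept without each library, whereas that of Dnajc3 was lost without any single library other than Eif4a3-KD replicate 3 (up to 0.114).

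Other described decay targets had 7 of 29 higher and 2 lower, with a median of 0.25. Snhg15, a snoRNA host, averaged 512 ± 126 CPM in Eif4a3-KD pools and 44.1 ± 19.1 CPM in NC pools (SD, n = 3 each; 3.54, edgeR adjusted p = 0.00166). Snhg1, another snoRNA host with 20.9% of its length overlapped, averaged 66.1 ± 32.2 CPM in Eif4a3-KD pools and 12.7 ± 2.34 CPM in NC pools (2.38, adjusted p = 0.00644). Upp1, a uridine phosphorylase, moved the other way, at 37.3 ± 5.03 CPM in Eif4a3-KD pools and 252 ± 25.1 CPM in NC pools (−2.75, adjusted p = 0.000954). Those changes and that of Ddit3, which is also in this list, were larger on the log2 scale than that of Ptbp2 and were kept without each library. Decay factors had 0 of 17 higher and 0 lower, with a median of −0.42; the helicase Upf1 had −1.70 (adjusted p = 0.103) and the kinase Smg1 −0.95 (0.105). In the exon junction complex, Eif4a3 was the 1 lower gene of 11 tested and 0 were higher, with a median of −0.15.

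**Figure D5:**
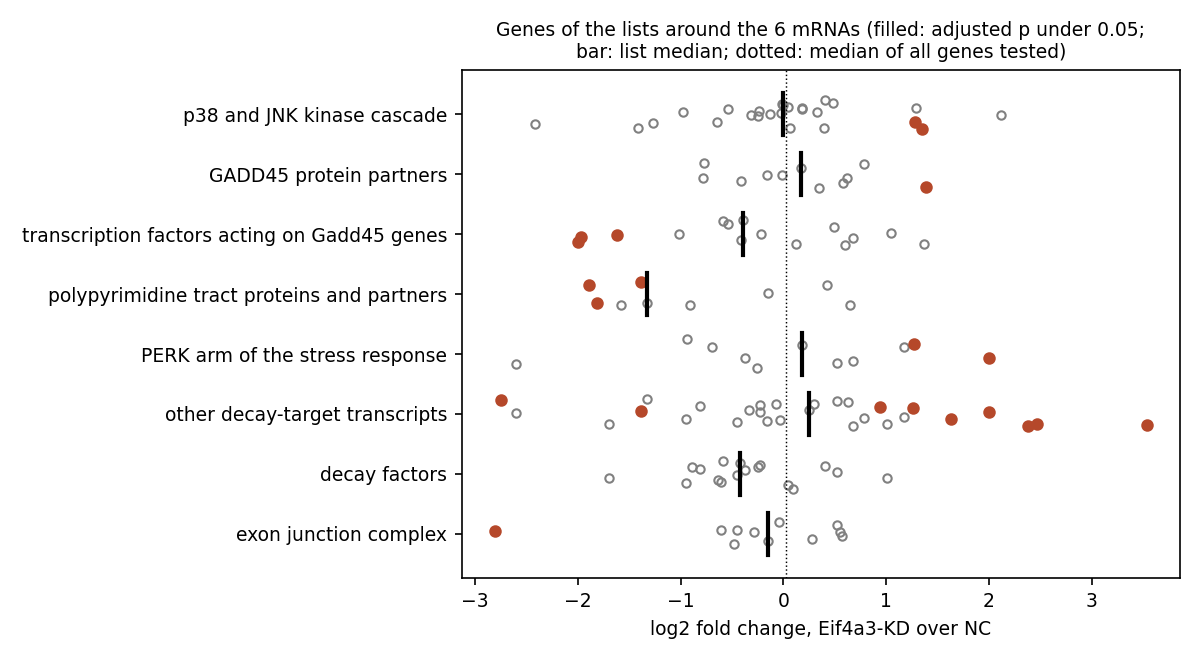
Log2 fold change, Eif4a3-KD over NC, of every tested gene of the 8 lists; filled points have an edgeR adjusted p under 0.05, black bars are list medians and the dotted line is the median of all genes tested (0.03). The polypyrimidine tract list has its median at −1.33, and the other decay targets reach 3.54 (Snhg15).

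Profiles over the 6 pools were compared with those of 6818 genes of at least 10 CPM. The measure was the root mean square difference of log2 CPM after centring each gene, with 0.5 first added to every CPM. That addition flattens the profiles of genes with few CPM, such as Gadd45a, the most. The genes most like Ptbp2 were Cplane1 (difference 0.07) and Zfp874a (0.14), which had log2 fold changes of 1.40 (edgeR adjusted p = 0.0216) and 1.29 (0.0267). Nearest to Gadd45b were Tram1 (0.14) and Ppig (0.22), with log2 fold changes of 1.39 (0.0252) and 1.37 (0.017). For Map3k4 they were Ogdh (0.17) and Bag3 (0.19), for Tbl2 Slc25a44 (0.18) and Prpf3 (0.18), for Gadd45a Pitpnb (0.09), and for Gadd45g Bdp1 (0.11) and Ddx10 (0.12). None of those 7 passed the edgeR test. All these genes were picked by their values in the same 6 pools. Fold changes and p-values near those of the member follow from that choice, and nothing is read from them.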

How the data were processed

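Polyadenylated RNA of 3 Eif4a3-KD and 3 NC pools was measured by Smart-seq2. The deposited values are whole-number counts per exon line, made by the authors with featureCounts 2.0.1 on GRCm38, per the file headers, with pairs counted in every overlapping line and strand setting 2. FastQC 0.11.9, fastp 0.20.1, STAR 2.7.6a, R 4.1.1 and DESeq2 1.34.0 are named in the submitters' processing notes. Smart-seq2 does not mark the strand, so pairs of the other orientation are missing and overlapping genes share reads. From 842173 lines, repeated exons were dropped (449500 left) and overlapping ones joined per gene (291424 blocks); each block took its highest line, and genes are sums of blocks. A pair spanning a junction counts more than once, so no counting interval is given. Library sums ranged from 15607226 to 18697761.

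Genes were filtered (filterByExpr), scaled by TMM and tested with edgeR 4.0.16 (quasi-likelihood, unpaired, two-sided, Benjamini-Hochberg over 15619 genes, threshold 0.05; R 4.3.3). The standard error is the log2 fold change divided by the root of the F statistic. Exon use was tested with diffSpliceDGE. Alternatives were DESeq2 1.42.0, limma 3.58.1 for exon use, other scalings, filters and block rules, a replicate block, leaving out each library and, added after seeing the data, exons of coding transcripts only.

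The 6 genes and the lists were chosen with earlier results of these data known. Text names the 6 genes, up to 4 passing genes of each list by lowest p (otherwise the 2 lowest) and the 2 most alike profiles, of which 1 is not reported here. Gene names came from a symbol table that matched 55102 of 55378 identifiers. Transcripts came from GENCODE vM21 and promoters from RefSeq, and proteins were not used here.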

Additional observations from a re-analysis of the deposited data

How the results depend on the processing

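Of the 6 genes, 1 was called in the fit reported, against 13.1% of all genes tested, and 3 with DESeq2, against 21.3%. With no filter it was 3, against 2089 higher and 1518 lower of 31769 genes. It was 2 with a filter of 5 CPM, against 853 and 679 of 9478. The most counted block also gave 2, against 1351 and 1014 of 13798. So did the replicate block, against 1332 and 1198 of 15619. Without 1 library in turn it was 0, against 550 to 1223 higher and 336 to 1131 lower over all genes. Gadd45b had 1.53 with DESeq2 (adjusted p = 0.0156), 1.51 with no filter (0.0375), 1.59 with 5 CPM (0.0425) and 1.63 with the most counted block (0.0402), all past the threshold. Map3k4 passed with DESeq2 (−1.38, 0.0408), with no filter (−1.39, 0.0217) and with the replicate block (−1.47, 0.0334). Ptbp2 missed it without each library (1.28 to 1.74). Gadd45g turned positive without Eif4a3-KD replicate 3 (0.05) and without NC replicate 1 (0.04), within −0.34 to 0.05 without 1 library. The causes were not tested. Gadd45a gave no value under the 5 CPM filter. No direction of the other 5 genes reversed in any alternative run, coding exons included.

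Over all genes, 1174 were called higher and 869 lower; the counts were 1829 and 1490 with DESeq2, 2089 and 1518 with no filter, and 550 to 1223 and 336 to 1131 without 1 library. With the replicate block they were 1332 and 1198; same-numbered pools had deviations correlated at 0.25, 0 and 0.09, so the numbers were not taken as pairs. The ratio of Gadd45b over Gadd45g differed by 1.08 to 1.85 without 1 library. Block use gave 0 calls for the 6 genes in all 9 alternatives.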
